A study of Arabidopsis thaliana with 28 samples.

Results

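The sugar transporter genes SWEET1, SWEET4, SWEET10, SWEET13, SWEET16 and TMT2 of Arabidopsis thaliana were followed across wild-type plants in warmth and cold and across plants that overexpress CBF transcription factors. All 6 were found by symbol in the platform's probe-to-gene table, among 13356 named genes, each with 1 probe set. The loci are AT1G21460 (SWEET1), AT3G28007 (SWEET4), AT5G50790 (SWEET10), AT5G50800 (SWEET13), AT3G16690 (SWEET16) and AT4G35300 (TMT2).

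SWEET proteins are uniporters that let sugars move down their concentration gradient across a membrane, whereas TMT2 is a proton-coupled carrier that loads sugars into the vacuole. SWEET1 carries glucose across the plasma membrane and SWEET4 carries hexoses there. SWEET10 and SWEET13 belong to the clade that exports sucrose from cells, and SWEET16 sits in the vacuolar membrane. CBF1, CBF2 and CBF3 are AP2/ERF transcription factors that are induced by cold and act in cold acclimation, a process in which leaves accumulate soluble sugars.

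Transcripts of the entire aerial part of seedlings were measured on an Affymetrix array in 28 samples, 4 in each of 7 groups. Warm plants grew on agar under continuous illumination (roughly 100 µmol m-2 s-1) at 22 °C for 11 d. Cold plants then spent 24 h at 4 °C in roughly 35 µmol m-2 s-1, so that light and age changed together with temperature and cannot be told apart from it. The groups were warm and cold Ws-2 wild type, warm plants overexpressing CBF1 (CBF1OX, lines G5 and G39), CBF2 (CBF2OX, lines E2 and E24) or CBF3 (CBF3OX, lines A28 and A30), and plants overexpressing CBF2Δc, a truncated CBF2, warm or cold (lines DN89 and DN96). There were 2 lines per construct and 2 samples per line, replicates 1 and 2 being those of the line named first. The sample titles call the CBF2Δc plants CBF2DN. The sources used here give neither the promoter of the constructs nor the accession of the transgenic lines. The labels call the samples biological replicates without saying how plants were pooled, so p-values reflect only the scatter of these 28 samples.

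Values are GCRMA levels on a log2 scale, with array medians between 4.98 and 5.08. A level of 4 served as the detection level, and genes above it in at least 4 arrays were tested, which all 6 members passed. SWEET4 passed only through the cold groups, as it reached at most 4.18 in CBF1OX and stayed under 4 in the other warm groups. The number of arrays limits the precision. CBF1, CBF2 and CBF3 have no probe set named here, so the transgenes were not checked by their own transcripts. Of 16 leaf markers 4 had a named probe set (LHCB4.1, LHCB4.2, PSB27 and RCA), and all 4 were above the detection level. Of 11 root markers 4 had one, of which PYK10, EXPA7 and EXPA18 exceeded the detection level in at least 1 array and LBD16 in none. PYK10, a beta-glucosidase gene on the root list, made up most of that list's level and was at 10.38 or more in every sample. The summed root marker level used below is therefore mostly that of PYK10 and is no measure of root content. The means of EXPA7 and EXPA18 were highest in the warm wild type, at 4.31 and 4.5, near the detection level. Whether the samples, which the labels call aerial, held root tissue was not tested. None of 4 phloem and 5 flower and pollen markers had a named probe set.

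In wild-type plants the cold raised SWEET1, SWEET4, SWEET13 and TMT2. SWEET10 and SWEET16 were not called, with SWEET16 lying lower in every cold sample. A gene was called when its adjusted p from limma was below 0.05 and its difference at least 2-fold. By that rule 4 of 6 members rose and 0 fell. Of all 14578 features tested, 8.74% rose and 9.67% fell, 18.4% together. The median log2 difference of the members was 2.0, and that of all features was -0.04. The members were chosen with earlier results of these data known. Their counts and medians, here and below, therefore cannot test whether sugar transporters responded more than other genes.

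SWEET13, the sucrose exporter gene, had log2 levels of 4.2, 3.65, 3.74 and 3.81 in the warm wild-type samples and 8.60, 8.27, 8.48 and 8.35 in the cold ones. Every cold sample lay far above every warm one, and 3 of the 4 warm samples lay under the detection level. The log2 difference was 4.58 ± 0.56 (SE, adjusted p = 1.82e-07). With values under 4 set to 4 it was 4.38.

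SWEET4, the hexose uniporter gene, had log2 levels of 3.60, 3.39, 3.50 and 3.05 in warm wild type and 5.06, 6.65, 5.54 and 6.05 in the cold. All warm samples were under the detection level and all cold samples above it. The log2 difference was 2.44 ± 0.29 (SE, adjusted p = 1.29e-07). It was 1.83 with values under 4 set to 4. SWEET4 entered the test only through its cold samples, and with no filter its difference was also called (adjusted p = 1.3e-06).

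SWEET1, the glucose uniporter gene, was measured above the detection level in every sample, at 5.97, 5.68, 6.09 and 5.90 in warm wild type and 7.33, 7.47, 8.01 and 8.26 in the cold. The groups did not overlap, and the log2 difference was 1.86 ± 0.29 (SE, adjusted p = 8.41e-06), a 3.62-fold rise.

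TMT2, the vacuolar importer gene, had log2 levels of 7.39, 6.92, 6.80 and 6.85 in warm wild type and 9.05, 9.06, 9.33 and 9.09 in the cold. The cold samples were close to each other and all above the warm ones. The log2 difference was 2.14 ± 0.21 (SE, adjusted p = 4.14e-09), a 4.42-fold rise.

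SWEET16, the vacuolar uniporter gene, had log2 levels of 5.03, 4.69, 5.21 and 5.01 in warm wild type and 4.04, 3.87, 4.13 and 4.13 in the cold. The samples did not overlap and the log2 difference was -0.94 ± 0.27 (SE, adjusted p = 0.00503), which is less than 2-fold and so was not called. Without replicate 2 of the warm wild type the difference was -1.04 and was called.

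SWEET10, the other sucrose-type gene, had log2 levels of 3.61, 4.35, 3.93 and 3.81 in warm wild type and 3.84, 4.12, 3.79 and 4.32 in the cold. The groups overlapped around the detection level, and the log2 difference was 0.09 with a 95% interval from -0.51 to 0.69 (adjusted p = 0.82). SWEET10 and SWEET13 are neighbouring genes in the annotation (assembly TAIR10.1), with 0 protein-coding genes between them.

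The marker lists moved with temperature as well. The log2 of the summed root marker level ranged from 11.62 to 12.23 in warm and from 10.65 to 11.29 in cold wild-type samples, and that of the leaf markers from 14.35 to 14.55 and from 13.58 to 13.94. Their part in the results above was not tested. In such whole-organ samples, fewer cells of a type and less RNA per cell cannot be told apart.

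**Figure D1:**
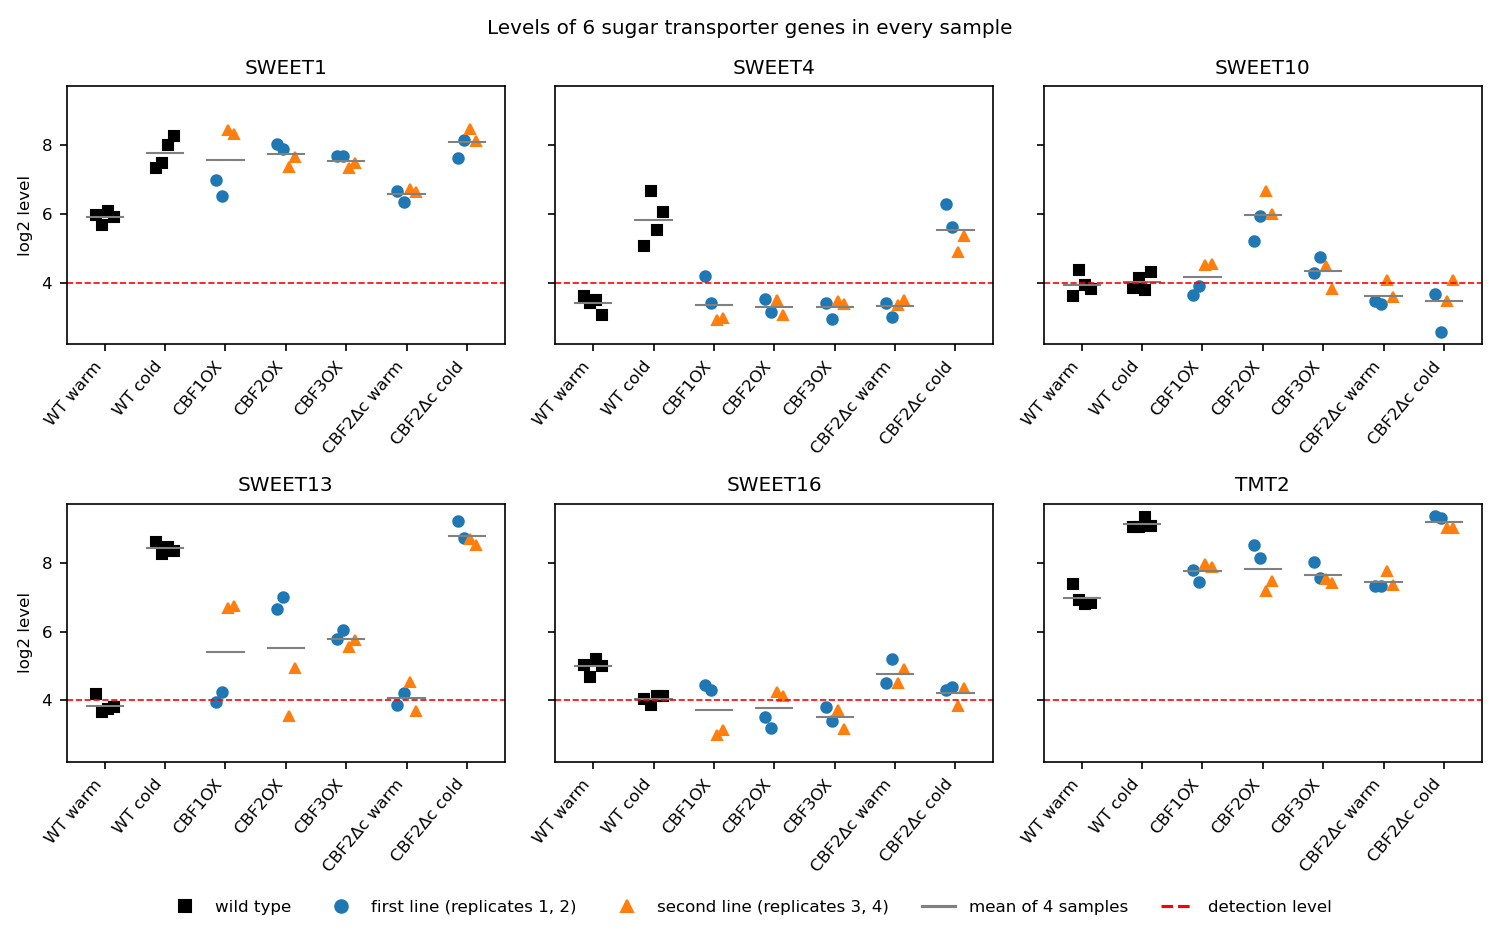
Log2 GCRMA level (vertical axis) of each of the 6 genes, with 1 panel per gene, 1 point per sample (squares for wild type, circles and triangles for the first and second line) and the 7 groups along the horizontal axis; grey bars are group means and the red dashed line marks the detection level of 4. SWEET4 lies above the line in all cold samples and in 1 of the 20 warm ones, SWEET13 is highest in the cold groups, and SWEET10 is highest in CBF2OX.

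In the warm overexpressors, SWEET1 rose and SWEET16 fell in all 3 groups, SWEET10 rose in CBF2OX and SWEET13 in CBF3OX, and SWEET4 and TMT2 were not called in any. In CBF1OX 1 member rose and 1 fell, where 1.8% of all features rose and 0.727% fell (2.53% together). In CBF2OX 2 members rose and 1 fell, where 1.71% of all features rose and 0.789% fell (2.5% together). In CBF3OX 2 members rose and 1 fell, where 1.94% of all features rose and 1.66% fell (3.6% together). The members' median log2 difference was 0.50, 1.27 and 0.53, and that of all features 0.01, 0 and 0. The comparisons share the warm wild-type samples with each other and with the cold comparison. Each overexpressor group holds 2 lines with 2 samples each, and the reported fits count samples of the same line as independent. The p-values of these groups, here and below, therefore do not measure the spread between transgenic lines.

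SWEET1 levels were 6.98, 6.52, 8.43 and 8.31 in CBF1OX, 8.04, 7.89, 7.37 and 7.64 in CBF2OX, and 7.67, 7.68, 7.33 and 7.47 in CBF3OX. Each overexpressing sample was above all 4 warm wild-type samples. The log2 differences were 1.65, 1.83 and 1.63 (adjusted p = 0.00116, 0.000257 and 0.000904). The call in CBF1OX ended when only the compared groups were fitted (adjusted p = 0.122) and with line G5 alone (0.84, adjusted p = 0.191).

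SWEET16 went the other way, with log2 levels of 4.46, 4.31, 2.98 and 3.13 in CBF1OX, 3.52, 3.19, 4.25 and 4.13 in CBF2OX, and 3.81, 3.39, 3.73 and 3.18 in CBF3OX. No overexpressing sample reached the lowest warm wild-type sample, and most lay under the detection level. The log2 differences were -1.27, -1.21 and -1.46 (adjusted p = 0.00636, 0.00702 and 0.00116). With values under 4 set to 4 they were -0.79, -0.89 and -0.99, all under 2-fold, and the CBF1OX call also ended without its replicate 3 or 4, with line G5 alone (-0.60) and in a fit to the compared groups (adjusted p = 0.137). The CBF2OX call ended with line E24 alone (-0.80, adjusted p = 0.205).

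SWEET13 levels varied widely within CBF1OX and CBF2OX, with 3.94, 4.25, 6.68 and 6.75 in CBF1OX, 6.67, 7.01, 3.54 and 4.94 in CBF2OX, and 5.80, 6.05, 5.55 and 5.75 in CBF3OX. CBF3OX was the 1 group with all samples above the warm wild type. Its log2 difference of 1.94 was called (adjusted p = 0.03), and those of CBF1OX (1.56, adjusted p = 0.109) and CBF2OX (1.69, adjusted p = 0.0825) were not. The CBF3OX call ended in 9 of 17 alternatives, namely with no filter on low values (adjusted p = 0.0711), with either line alone, and without replicate 1, 2 or 4 of CBF3OX or replicate 2, 3 or 4 of the warm wild type. Its difference stayed between 1.74 and 2.08 in all 17, and the call held when only the compared groups were fitted. The pooled spread includes CBF1OX and CBF2OX, with SDs of 1.52 and 1.61, where CBF3OX had 0.21 and the warm wild type 0.24. The same pooled spread sets the SEs and intervals of SWEET13 in the other comparisons of groups.

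TMT2 levels were 7.81, 7.45, 7.97 and 7.88 in CBF1OX, 8.52, 8.15, 7.18 and 7.48 in CBF2OX, and 8.03, 7.56, 7.54 and 7.43 in CBF3OX. The CBF1OX and CBF3OX samples were all above the warm wild type, and the CBF2OX samples overlapped with it. The log2 differences of 0.79, 0.84 and 0.65 (adjusted p = 0.0242, 0.0153 and 0.0509) were all under 2-fold. Without replicate 3 of CBF2OX both TMT2 (1.06) and SWEET13 (2.36) were called there, and SWEET13 was called in CBF1OX without its replicate 1 or 2.

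SWEET4 ranged from 2.92 to 4.18 over the 12 overexpressing samples, where the warm wild type ranged from 3.05 to 3.60. Its log2 differences were -0.02, -0.09 and -0.08.

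**Figure D2:**
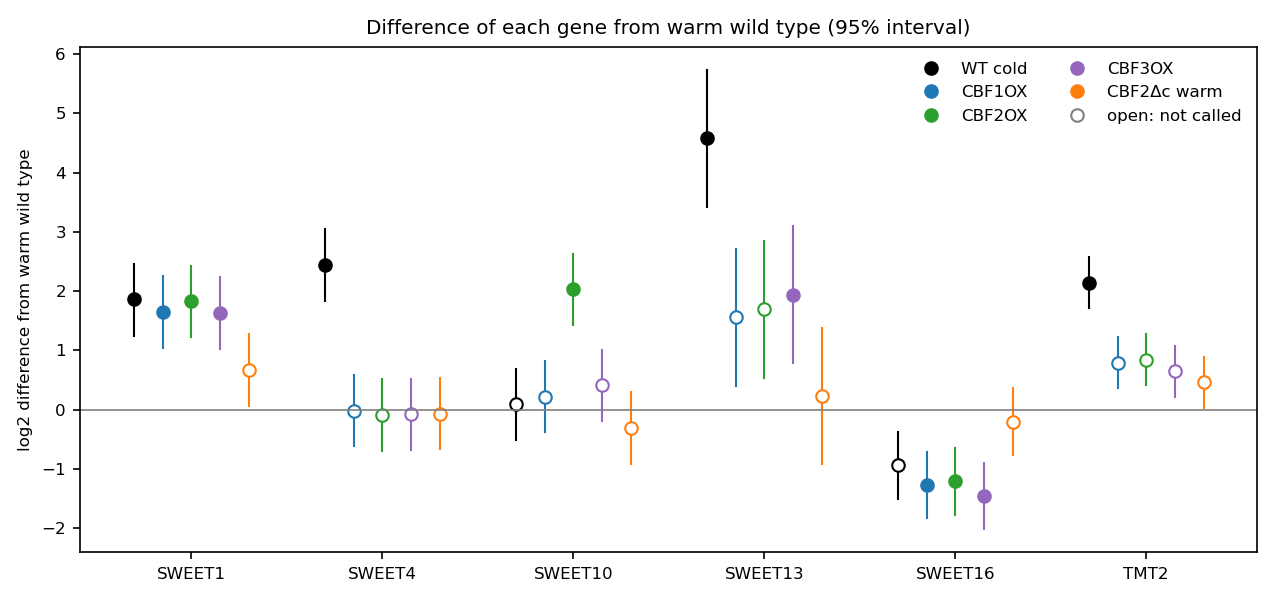
Log2 difference from the warm wild type (vertical axis) of each gene (horizontal axis) in the cold wild type, the 3 overexpressors and warm CBF2Δc, with points for the limma estimates and bars for their 95% intervals; open points were not called. SWEET13 lies at 4.58 in the cold and between 1.56 and 1.94 in the overexpressors, and SWEET16 lies between -0.94 and -1.46 in these 4 groups.

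Each overexpressor was then set directly against the cold wild type, which is the difference between its change and the cold change. SWEET4, SWEET13 and TMT2 were lower in all 3 overexpressors than in the cold wild type, where 7.25%, 7.83% and 7.57% of all features were lower in CBF1OX, CBF2OX and CBF3OX and 15.8%, 16.6% and 15.5% were called in either direction. The log2 differences of SWEET13 were -3.02, -2.89 and -2.64 (adjusted p = 7.62e-05, 0.000124 and 0.000358). Those of SWEET4 were -2.46, -2.53 and -2.52, and those of TMT2 were -1.36, -1.30 and -1.49. SWEET4 entered the test only through the cold groups, so the filter itself favoured this direction. Most of its overexpressing samples lay under the detection level. Over the alternatives its smallest differences were -1.78 in CBF1OX, -1.83 in CBF2OX and -1.83 in CBF3OX. With line E2 alone the TMT2 difference of CBF2OX was -0.80 and was not called.

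SWEET1 was not called in any of these comparisons. Its log2 differences from the cold wild type were -0.21 (95% interval -0.81 to 0.40) in CBF1OX, -0.03 (-0.64 to 0.57) in CBF2OX and -0.23 (-0.84 to 0.38) in CBF3OX. With line G5 alone the CBF1OX difference was -1.02 and was called. SWEET16 had differences of -0.32, -0.27 and -0.52, also not called.

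SWEET10 rose only in CBF2OX among the 4 comparisons with the warm wild type. Its log2 levels were 5.22, 5.95, 6.65 and 6.0 in CBF2OX, 3.64, 3.90, 4.51 and 4.53 in CBF1OX, and 4.29, 4.75, 4.49 and 3.80 in CBF3OX. All CBF2OX samples were above every sample of the other groups. Against the warm wild type the difference was 2.03 ± 0.29 (SE, adjusted p = 6.09e-05), and 1.87 with values under 4 set to 4, since 3 of the 4 warm wild-type samples lay under the detection level. Against the cold wild type it was 1.94 (adjusted p = 4.81e-06). The CBF1OX difference from the warm wild type was 0.22 (adjusted p = 0.757), and the CBF3OX one was 0.41 (adjusted p = 0.449).

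The overexpressors were also compared with each other. SWEET10 differed by -1.81 ± 0.29 for CBF1OX minus CBF2OX (SE, adjusted p = 0.00594), where 0.0343% of all features were called, and by 1.62 ± 0.29 for CBF2OX minus CBF3OX (adjusted p = 0.0408), where 0.0206% were called. The CBF1OX call ended without CBF1OX replicate 1 (adjusted p = 0.0616), without CBF2OX replicate 3 (0.0511) and in a fit to the compared groups (0.475). The CBF3OX call ended in 9 of 15 alternatives, among them 6 that each left out 1 sample (CBF2OX replicate 2, 3 or 4, or CBF3OX replicate 1, 3 or 4). It also ended with the line as a random block (adjusted p = 0.167), with no filter (0.104) and in a fit to the compared groups (0.791). No other member was called between overexpressors, and CBF1OX minus CBF3OX had no member called by limma, of 0.0206% of all features.

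Plants with the truncated CBF2Δc were set against the wild type at the same temperature. By limma 0 of 6 members were called in the warm, where 0.0206% of all features were, and 2 had an unadjusted p below 0.05. In limma these were SWEET1 (log2 difference 0.67, unadjusted p = 0.0309) and TMT2 (0.46, unadjusted p = 0.0356). SWEET1 levels of 6.65, 6.33, 6.72 and 6.63 in warm CBF2Δc were all above the warm wild type and all below the cold wild type. In the cold 0 of 6 were called by limma (0.837% of all features), and 0 had an unadjusted p below 0.05. The 95% intervals ran from -0.28 to 0.93 for SWEET1, from -0.79 to 1.51 for SWEET13 and from -0.38 to 0.48 for TMT2. The largest difference in size was that of SWEET10, -0.57 with an interval from -1.17 to 0.03 (limma, unadjusted p = 0.061).

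Cold raised the same 4 members in CBF2Δc, SWEET13 by 4.71 (adjusted p = 1.19e-07), SWEET4 by 2.22 (5.71e-07), TMT2 by 1.73 (1.45e-07) and SWEET1 by 1.51 (0.00012), where 9.08% of all features rose and 18.1% were called in either direction. Cold CBF2Δc levels of SWEET13 were 9.21, 8.73, 8.69 and 8.52 against 3.87, 4.23, 4.53 and 3.70 in the warm. SWEET4 entered the test only through the cold groups, and its rise in CBF2Δc ranged from 1.54 to 2.76 over the alternatives. SWEET16 differed by -0.57 (adjusted p = 0.0839). The cold responses of CBF2Δc and wild type were compared by their interaction, with 0 members called, 0 at an unadjusted p below 0.05 and 0.0274% of all features called. The largest of these 6 differences in size was that of TMT2, -0.41 with a 95% interval from -1.02 to 0.19. The intervals of SWEET13 (-1.5 to 1.76) and SWEET1 (-1.2 to 0.51) were wider. For these genes a 2-fold difference between the cold responses is therefore not excluded.

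The lines of CBF1OX and CBF2OX differed in several members. Line G39 minus line G5 of CBF1OX gave called log2 differences for SWEET13 (2.62 ± 0.31 SE, adjusted p = 4.21e-06), SWEET1 (1.62 ± 0.25, 7.82e-05) and SWEET16 (-1.33 ± 0.23, 0.000412), that is 3 of 6 members where 5.89% of all features were called. These tests set 2 samples against 2, with the spread pooled over all samples. SWEET16 differed by -0.39 with values under 4 set to 4 and was then not called.

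Against the warm wild type, SWEET13 differed by 2.87 in line G39 (adjusted p = 0.000326) and SWEET1 by 2.46, while line G5 gave 0.25 for SWEET13. COR47, a cold-induced gene that CBF factors bind, was 13.40 in G39 and 12.04 in G5, a difference of 1.37 ± 0.19 (SE, adjusted p = 3.33e-05), and the difference of COR15A, another such gene, was 0.69 (adjusted p = 0.173). Both marker lists were lower in G39, the summed root level with 12.15 to 12.47 in G5 and 11.37 to 11.42 in G39 and the summed leaf level with 14.54 to 14.57 in G5 and 14.11 to 14.22 in G39. The part of these in the line differences was not tested.

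In CBF2OX, line E24 minus line E2 gave called differences for SWEET13 (-2.60 ± 0.31 SE, adjusted p = 3.65e-05) and TMT2 (-1.01 ± 0.20, adjusted p = 0.0045), where 2.3% of all features were called. The TMT2 call ended when arrays were centred on their medians (-0.99). Line E2 had SWEET13 at 6.67 and 7.01 and line E24 at 3.54 and 4.94. SWEET16 differed by 0.84 (adjusted p = 0.0383), under 2-fold. The COR47 difference between these lines was -0.32 (adjusted p = 0.402, not called), and the summed root marker level was 11.29 to 11.33 in E2 and 11.50 to 11.99 in E24, with leaf levels of 14.34 to 14.58 and 14.51 to 14.56. SWEET10, by contrast, was above the warm wild type in both, by 1.66 in E2 and 2.40 in E24.

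In CBF3OX and CBF2Δc no member was called between lines by limma. The shares of all features called were 0.00686% for A30 minus A28, 0.919% for the warm and 1.1% for the cold CBF2Δc lines. In the cold CBF2Δc lines 1 member, SWEET4, had an unadjusted p below 0.05 (-0.84 for DN96 minus DN89).

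**Figure D3:**
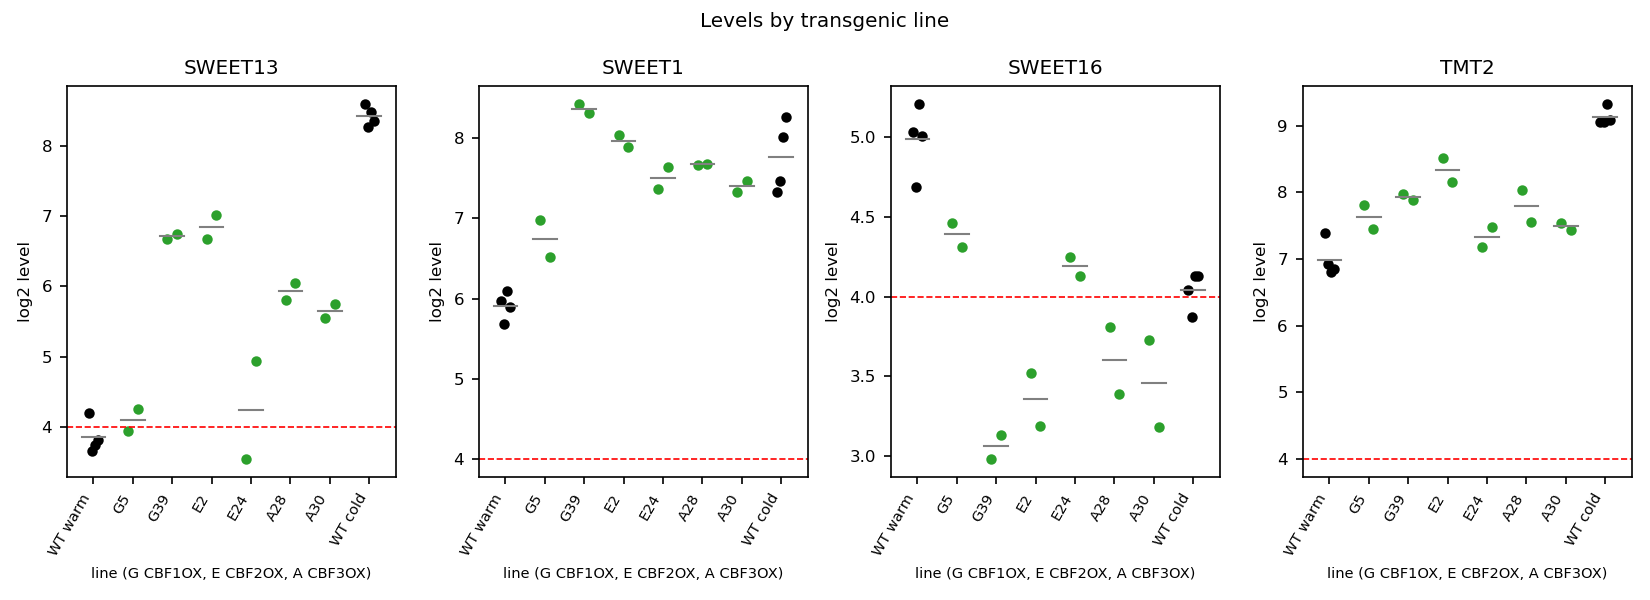
Log2 GCRMA level (vertical axis) of SWEET13, SWEET1, SWEET16 and TMT2 in each overexpressing line and in the warm and cold wild type (horizontal axis), with 1 point per sample, grey bars for means and a red dashed line at the detection level of 4. SWEET13 is near 4 in G5 and above 6.5 in G39 and E2, and SWEET16 is lower in G39 and E2 than in G5 and E24.

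Over the 12 overexpressing samples, which come from 6 lines, the levels of SWEET13 and SWEET16 had a Pearson correlation of -0.91, SWEET1 and SWEET13 of 0.80, and SWEET1 and SWEET16 of -0.79. Samples of 1 line share their transgene insertion, so these values describe 6 lines and no more. Most SWEET16 levels in these samples were under the detection level. With values under 4 set to 4, its G39 minus G5 difference was -0.39 instead of -1.33. The correlations were not recomputed with that floor. Over all 28 samples the correlation of SWEET13 and TMT2 was 0.94, and these samples share the cold groups that set both high.

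Ordered by mean level, neighbouring groups mostly overlapped in their samples. For SWEET1 the cold and overexpressing groups (means from 7.54 to 8.09) came first, then warm CBF2Δc (6.58), which lay under CBF3OX and overlapped with CBF1OX, and then the warm wild type (5.91), which overlapped with no other group. SWEET4 separated into the cold groups (5.83 and 5.54) and all others (3.30 to 3.39 in mean), SWEET10 into CBF2OX and all others, and SWEET13 and TMT2 into the cold groups and all others. SWEET16 separated into the warm wild type and warm CBF2Δc (4.99 and 4.78) and the rest (3.53 to 4.22). All other neighbours in these orders did not differ beyond their spread.

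Of 65 other sugar transporter genes on the lists used here, 15 had a named probe set and 7 were tested. None of the sucrose, hexose and polyol, or plastid transporter genes had a named probe set. SWEET3, SWEET5, SWEET6, SWEET7, SWEET8, SWEET9, SWEET14 and TMT3 never exceeded 2.92 in any sample.

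Among the 7 tested, 1 rose and 2 fell in the cold wild type, where 8.74% of all features rose and 9.67% fell. SWEET15, a uniporter gene known from senescing leaves, rose by 2.11 (adjusted p = 0.000906), with cold wild-type levels that spread from 4.65 to 8.40. SFP1 and SFP2, which encode carriers of the ERD6-like family, differed by -1.31 (adjusted p = 1.19e-07) and -1.36 (adjusted p = 5.5e-05). In the overexpressors the 1 call was SWEET11, a phloem-loading sucrose exporter gene, which fell by 1.1 in CBF3OX (adjusted p = 0.000232), where 3.6% of all features were called, and had differences of -0.80 and -0.94 in CBF1OX and CBF2OX. TMT1, the paralog of TMT2, differed by -0.64 in the cold (adjusted p = 0.00657, under 2-fold), and TMT2 rose by 2.14. In CBF1OX, CBF2OX and CBF3OX TMT1 differed by -0.66, -0.61 and -0.80, also under 2-fold. SWEET17, the closest relative of SWEET16, differed by -0.87 in the cold (adjusted p = 0.000339, under 2-fold). Its differences in CBF1OX, CBF2OX and CBF3OX were -0.37, -0.82 and -0.60, not called. The median log2 difference of the 7 in the cold was -0.64.

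**Figure D4:**
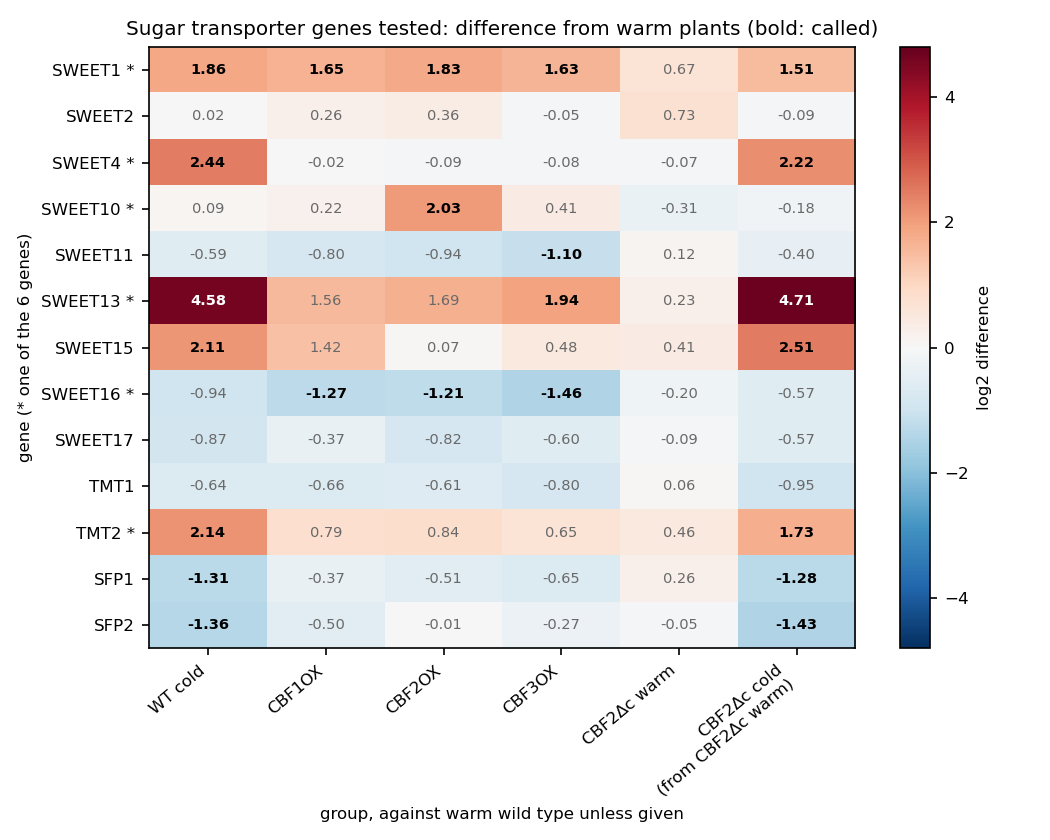
Log2 difference from the named control group (colour and printed value) of the 13 sugar transporter genes tested, with genes in rows and comparisons in columns; bold values were called. SWEET13, SWEET4, TMT2, SWEET1 and SWEET15 are positive and bold in both cold columns, and SFP1 and SFP2 are negative and bold in both.

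The named genes whose levels followed each member most closely were found by Pearson correlation over the 28 samples, which share the cold groups. For SWEET13 they were AT2G16890 (0.973), AT1G32860 (0.966) and BETA-VPE, a vacuolar processing enzyme gene (0.959). BETA-VPE was also close to TMT2 (0.949), after SAT32 (0.96) and AT1G67360 (0.955). For SWEET4 they were AT4G39670 (0.954), NDB2, a mitochondrial NAD(P)H dehydrogenase gene (0.952), and AT3G04010 (0.951), and for SWEET1 they were AT5G17210 (0.933), AT5G19875 (0.925) and AT3G17130 (0.922). SWEET16 was closest to AT5G59670 (0.917), AT1G21000 (0.885) and AT1G69890 (0.883). SWEET10 had the lowest likeness values of the 6, with AT1G10770 (0.783), AT5G05600 (0.709) and AT1G75770 (0.708).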

How the data were processed

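The authors deposited 1 table of GCRMA-normalized log2 values for 22810 probe sets and 28 samples; GCRMA and limma are named in the submitters' processing notes, and the log2 base was read from the values, which run from 2.16 to 14.53. The lowest value filled 11.6% of the cells. Versions of the authors' tools: not given in the sources used here. No value was renormalized.

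Probe sets were named through the platform annotation (13513 with 1 gene, 503 with several and 8730 with none, besides 64 controls), and symbols were updated through RefSeq (TAIR10.1). A gene was represented by its probe set with the highest mean, and unnamed probe sets were kept. Features above 4 on the log2 scale in at least 4 arrays were tested (7898 named genes and 6680 unnamed probe sets). limma 3.58.1 (R 4.3.3; lmFit and eBayes) was fitted to 7 group means over all 28 samples, or to means per line and temperature for the line tests, with Benjamini-Hochberg adjustment over 14578 features per comparison; a call needed an adjusted p below 0.05 and a 2-fold difference. The fit was tested on simulated data. Alternatives were other filters, a floor at 4, median centring, only the compared groups, a replicate block, the line as a random block, single lines and leaving out each sample. Warm and cold CBF2Δc samples of 1 number came from the same line. Their deviations from the group means correlated by 0.152 to 0.283 in all 4 pairs. A shared line alone can give such correlations, so they do not show pairing by number. The reported CBF2Δc results are unpaired, and these numbers were used as blocks only in alternatives. No other pair of groups had every correlation above 0.1. Within-group correlations of samples were 0.986 to 0.995.

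The members and lists were chosen with earlier results of these data known. All 6 members are named throughout, other transporter genes are named where called against wild type, listed as undetected or paired with a member, and the 3 genes most correlated with each member are named. TMT1 and the differences of SWEET17 were added after their values were seen. COR47 and COR15A served as cold-induced CBF targets.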

Additional observations from a re-analysis of the deposited data

Results flagged for a closer look

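In 3 of 42 combinations of gene and group, 1 sample stood apart from the other 3 of its group by Dixon's criterion, which chance meets in about 1 in 20 groups. SWEET16 in cold CBF2Δc had 3.83 beside 4.31, 4.35 and 4.38. TMT2 in the cold wild type had 9.33 beside 9.05, 9.06 and 9.09. TMT2 in warm CBF2Δc had 7.78 beside 7.32, 7.34 and 7.37.

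Differences between constructs or lines passed a direct test in these cases. SWEET10 differed by -1.81 for CBF1OX minus CBF2OX and by 1.62 for CBF2OX minus CBF3OX. These calls ended in 3 and 9 of 15 alternatives. Line G39 minus line G5 gave 1.62 for SWEET1, 2.62 for SWEET13 and -1.33 for SWEET16. That of SWEET16 was not called with values under 4 set to 4. Line E24 minus line E2 gave -2.60 for SWEET13 and -1.01 for TMT2. That of TMT2 was not called with arrays centred on their medians.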

How the results depend on the processing

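Counts of members called were recomputed in 259 combinations of comparison and alternative, of which 239 stayed within 1.5 times the reported count. In CBF1OX the count of 2 became 1 with values under 4 set to 4, 0 with only the compared groups fitted, 0 with line G5 alone, and 1 to 3 when single samples were left out. In CBF2OX the count of 3 became 5 with line E2 alone and was 3 to 5 without single samples. It was 2 where SWEET16 lost its call, with values under 4 set to 4 and with line E24 alone. In CBF3OX the count of 3 was 2 to 3 in the other settings and also without single samples. In the cold wild type the count was 4 to 5 without single samples. CBF1OX minus CBF2OX went from 1 to 0 with only the compared groups fitted and to 0 to 1 without single samples. CBF2OX minus CBF3OX went from 1 to 0 with no filter, in a fit to the compared groups and with the line as a random block, and was 0 to 1 without single samples. Line E24 minus line E2 went from 2 to 1 with arrays centred on their medians. Of 1554 single differences, 34 lost their call, 9 gained one and 0 called differences reversed.

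Counts over all features moved more: CBF1OX had 369, and 35 with only the compared groups, 49 for line G5, 1145 for line G39 and 140 to 629 without single samples. CBF2OX had 364, and 642 with line E2 and 195 with line E24 alone, and CBF3OX had 525, and 240 with line A30 alone. Warm CBF2Δc against wild type had 3, and 1 in a fit to the compared groups and 72 with line DN96 alone. Cold CBF2Δc against wild type had 122, and 26 in such a fit, 63 with line DN89 and 298 with line DN96 alone, and 75 without its replicate 3. The interaction had 4, and 8 with the floor at 4, 13 with the line block, 18 with line DN96 alone and 2 to 18 without single samples. CBF1OX minus CBF2OX had 5, and 1 in a fit to the compared groups and 3 without CBF1OX replicate 1 or CBF2OX replicate 3, and CBF1OX minus CBF3OX had 3, and 1 in such a fit. With no filter, A30 minus A28 went from 1 to 2 and warm DN96 minus DN89 from 134 to 86.

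Replicate numbers are shared by the groups, but only 15 of 84 same-numbered pairs correlated above 0.1 (range -0.286 to 0.38). Of 28 samples, 8 were closest to their own number, and the reported fits did not take the numbers as pairs. In the transgenic groups the numbers also mark the lines. Line differences could therefore hide a link between same-numbered samples, which these correlations cannot exclude. Every pair of warm and cold CBF2Δc samples, which share lines, was above 0.1. Those numbers were used as blocks only in alternatives. With the replicate block on the CBF2Δc samples alone, an alternative chosen after seeing the data, 4 members were called in the cold and 2644 of all features, against 4 and 2634 without it. With the replicate block the counts of members called were 4 in the cold, 2 in CBF1OX, 3 in CBF2OX and 3 in CBF3OX, as without it, and all features called were 2684 in the cold and 343 in CBF1OX. SWEET4, SWEET10, SWEET13 and SWEET16 had groups near or under the detection level, where GCRMA values limit what a difference can show.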

Other observations

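SWEET17, a vacuolar uniporter gene and the closest relative of SWEET16, held the single log2 value 7.14 in 7 of 28 samples, counting values as equal where all deposited digits (2 decimals) agree. Of 8661 features with a mean above 6, 305 (3.52%) held 1 value in 7 or more samples.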
